A study of Mus musculus with 10 samples.

Results

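The genes described here mark the non-parenchymal cells that line and wrap the liver sinusoid: 20 genes of sinusoidal and other endothelial cells, and 20 genes of hepatic stellate cells and the matrix they lay down. They were chosen by name as markers and signalling genes of these cells, with earlier results of these data known. Each was read from a probe set annotated to that gene symbol alone. All 40 were measured, out of 22180 genes that could be read in this way. The question was whether livers lacking both macroH2A genes differed from wild-type livers in these genes.

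MacroH2A1 and macroH2A2 are variants of histone H2A with a large non-histone domain. Livers were macroH2A1 macroH2A2 double knockout (5 arrays) or wild type (5 arrays). Both groups were male 129/S6 (taconic) mice aged 2 months, fasted overnight for about 16 h, so any difference was seen in the fasted state only. The labels name no cell-type-specific or inducible deletion. They number the samples within a genotype but leave unsaid whether each number is its own mouse, so the p-values measure the spread between these samples, which may be technical.

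Liver sinusoids are lined by fenestrated endothelial cells that have no continuous basement membrane. These cells take up waste molecules and immune complexes from blood, and send Wnt and BMP signals that set hepatocyte zonation and iron control. Stellate cells lie between that endothelium and the hepatocytes, store vitamin A as retinyl ester, and on injury turn into contractile, collagen-producing myofibroblasts. In RNA from whole liver, fewer cells of a type and less RNA per cell cannot be told apart.

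Arrays were alike in overall level, with medians between 6.43 and 6.46 on the log2 scale and correlations between 0.989 and 0.995. Macroh2a1 averaged 9.11 ± 0.07 in double knockout and 9.60 ± 0.07 in wild-type livers (SD, n = 5 each), a difference of -0.49 (limma adjusted p = 0.00128), and signal remained in the double knockout arrays. The macroH2A2 gene stood at 6.12 ± 0.19 in double knockout and 6.32 ± 0.28 in wild-type livers (SD, n = 5 each; limma adjusted p = 0.514), and both means were below 6.54. Where the probes lie relative to the deleted parts was not analysed here, so remaining signal does not test the labels. The value 6.54 is the 95th percentile of 1108 olfactory receptor probe sets. It was used as a guide to background on the assumption that most of these receptors are silent in liver. Of the 40 members 39 lay above it, the exception being Timp1. The defining markers of both cell types were therefore present: Clec4g, Oit3, Gpr182 and the scavenger receptors Stab1 and Stab2 for sinusoidal endothelium, and Reln, Colec11, Lrat, Hand2, Pdgfrb, Lhx2 and Cygb for stellate cells. Pancreatic acinar markers, which liver should lack, averaged 8.73 and 8.97 in double knockout replicates 1 and 2 and 9.90 and 11.01 in wild-type replicates 4 and 5, against 6.09 to 6.83 on the other 6 arrays. Without these 4 arrays 7 of the 40 members changed sign, 16 others moved by over 1.5 times and 17 moved by less, with 0 called in limma. The values of the 7 and of members described array by array are given below where they moved.

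Neither the endothelial nor the stellate genes held one that was called between the genotypes. None of the 40 passed an adjusted p under 0.05 in limma, where 0.884% of all 25335 probe sets tested were called. In double knockout livers 0.332% (84) were higher and 0.553% (140) lower. At an unadjusted p under 0.05 there were 5 members, 3 higher and 2 lower, or 12.5%, against 15.1% of all probe sets (7.52% higher and 7.60% lower). The 5 double knockout arrays lay entirely above or below the 5 wild-type arrays for 3 members, 1 above and 2 below, or 7.5%, against 3.90% of all probe sets (1.75% above and 2.15% below). Among the 14078 probe sets above the olfactory receptor level these shares were 1.44% called, 19.5% and 5.78%. The members' first shares were under these, and their last rests on 3 genes.

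Precision was enough to bound most of the differences. The 95% interval of the difference, taken for each gene on its own, lay within 0.3 on the log2 scale (1.23-fold) in either direction for 31 of 40 members. It lay within 0.5 (1.41-fold) for 37. The genes not held within 0.5 were Lyve1, Acta2 and Tagln, and those held within 0.5 but not within 0.3 were Vwf, Colec11, Ngfr, Rgs5, Pdgfra and Vim. The median standard error of the members was 0.07, against 0.06 over all probe sets. The count within 0.3 ranged from 25 to 32 when 1 array was left out, and was 16 with a covariate for macrophage marker level and 17 with one for olfactory receptor level. These counts under other fits were added after the data were seen.

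**Figure D1:**
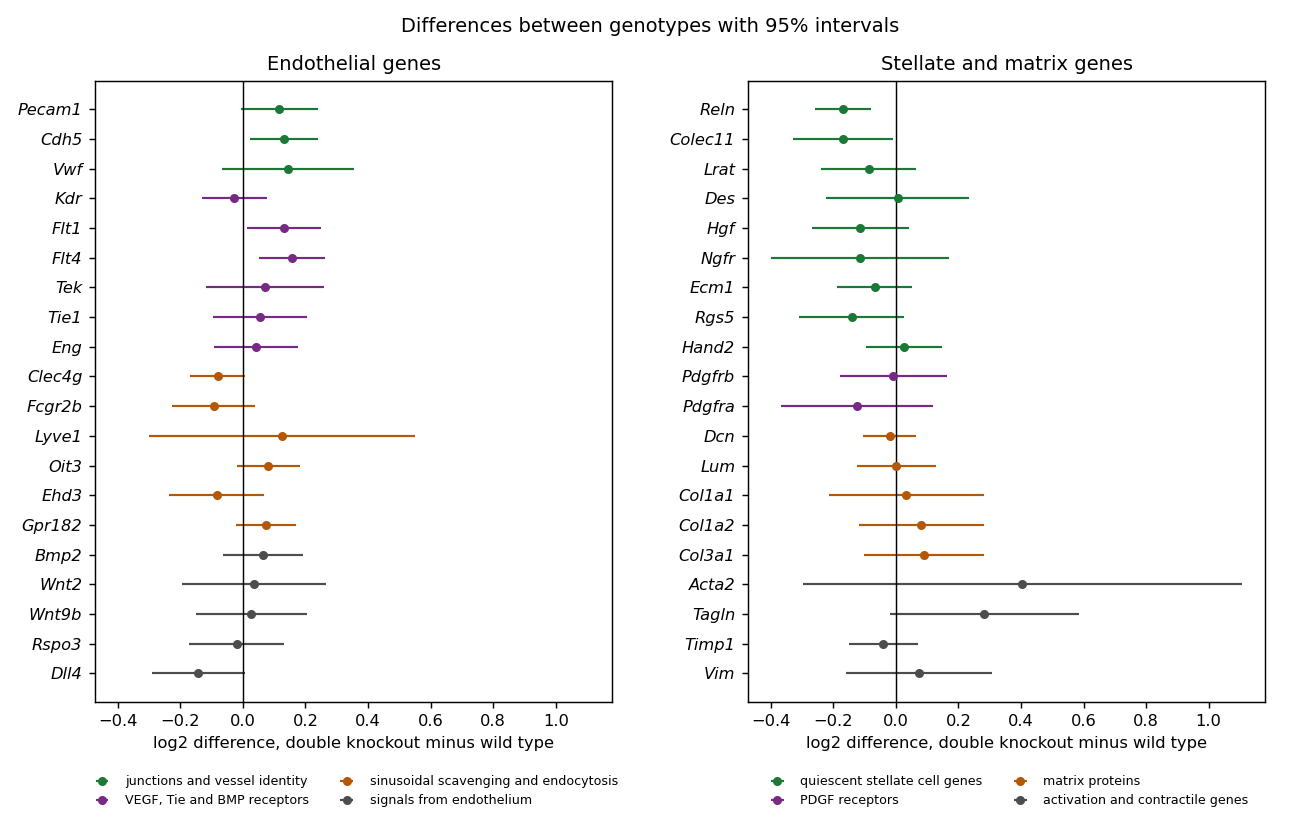
Differences between genotypes for all 40 members. Points are log2 differences (double knockout minus wild type, n = 5 arrays each), bars are 95% intervals of single genes from limma, and colours mark roles. Endothelial genes (left) lie between -0.14 and 0.16, and stellate and matrix genes (right) between -0.17 and 0.40, with Acta2 by far the widest interval.

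Endothelial genes leaned slightly upward. Their means were higher in double knockout livers for 14 of 20, with a median log2 difference of 0.06, where 48.5% of all probe sets were higher and the overall median was -0.003. That lean moved with a few arrays. The median was 0.03 without wild-type replicate 4, and -0.02 with 9 of 20 higher without the 4 arrays of highest acinar marker level. With the acinar marker mean as a covariate and all arrays kept, the median was 0.05 with 14 of 20 higher.

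The junction and vessel identity genes were the most uniform endothelial group. Cdh5, the VE-cadherin of endothelial junctions, had levels of 10.46, 10.49, 10.39, 10.54 and 10.39 in double knockout replicates 1 to 5, against 10.28, 10.42, 10.35, 10.21 and 10.35 in wild-type replicates 1 to 5. The groups overlapped, since wild-type replicate 2 lay above double knockout replicates 3 and 5. Its difference was 0.13 (SE 0.05, limma adjusted p = 0.238). The adhesion molecule Pecam1 had a difference of 0.12 (SE 0.06, adjusted p = 0.359 in limma). Vwf, the clotting glycoprotein kept low in healthy sinusoids and made mostly by larger vessels, had 0.14 (SE 0.10, adjusted p = 0.535 in limma). For Pecam1 the lowest of all 10 arrays was wild-type replicate 4, at 8.74, without which its difference was 0.08. It was 0.07 without the 4 arrays of high acinar level, and Vwf had 0.22 without wild-type replicate 5.

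Among receptors, a VEGF receptor had the lowest p of the endothelial genes. Flt4, the receptor for VEGF-C and VEGF-D that sinusoids share with lymphatic vessels, had levels of 9.11, 9.06, 8.92, 8.97 and 8.94 in double knockout replicates 1 to 5, against 8.83, 8.84, 8.89, 8.76 and 8.90 in wild-type replicates 1 to 5. Every double knockout array lay above every wild-type array, with 0.03 between the closest arrays. The difference was 0.16 (95% interval 0.05 to 0.26, SE 0.05, limma adjusted p = 0.152), and 0.09 without the 4 arrays of high acinar level.

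Flt1, a high-affinity VEGF receptor that also acts as a decoy, had levels of 7.84, 7.77, 7.67, 7.76 and 7.84 in double knockout replicates 1 to 5. In wild-type replicates 1 to 5 they were 7.64, 7.64, 7.81, 7.60 and 7.55. Only wild-type replicate 3 reached into the range of the double knockout arrays. The difference was 0.13 (SE 0.05, limma adjusted p = 0.281), and 0.06 without those 4 arrays. By contrast Kdr, the main signalling receptor for VEGF-A, averaged 9.86 ± 0.07 in double knockout and 9.89 ± 0.06 in wild-type livers (SD, n = 5 each), with a 95% interval of -0.13 to 0.08 for the difference, which was -0.10 without those 4 arrays. The angiopoietin receptor Tek, its relative Tie1 and the BMP and TGF-beta co-receptor Eng had differences of 0.07, 0.06 and 0.04, with limma adjusted p from 0.774 to 0.816. All 3 were negative without the 4 arrays of high acinar level (-0.06, -0.02 and -0.05). Whether Flt4 and Flt1 differed from Kdr was not tested.

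The scavenging genes split evenly, 3 higher and 3 lower. Clec4g, the C-type lectin LSECtin, had levels of 11.95, 12.01, 12.00, 12.00 and 11.87 in double knockout replicates 1 to 5, against 12.07, 12.07, 12.04, 12.04 and 12.02 in wild-type replicates 1 to 5. The groups did not overlap, but only 0.01 separated the nearest arrays, and the difference was -0.08 (95% interval -0.17 to 0.01, limma adjusted p = 0.376). Clec4g also varied little within groups, with a pooled SD of 0.04 that stood at percentile 4.04 of all probe sets. The inhibitory Fc receptor Fcgr2b, which clears immune complexes, had -0.09 and the endocytic recycling protein Ehd3 had -0.08, which without the 4 arrays of high acinar level was -0.18. Oit3 and the atypical chemokine receptor Gpr182 had 0.08 and 0.07. In limma their adjusted p ran from 0.448 to 0.637.

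Lyve1, a hyaluronan receptor of sinusoidal and lymphatic endothelium, was the least certain endothelial gene. Its levels were 9.09, 8.95, 8.95, 9.22 and 8.81 in double knockout replicates 1 to 5, against 8.48, 8.64, 8.81, 9.75 and 8.72 in wild-type replicates 1 to 5. Wild-type replicate 4 was the highest of the 10 arrays, and the other 4 wild-type arrays were below all double knockout arrays. The difference over all arrays was 0.12 (SE 0.19, limma adjusted p = 0.832). Without the 4 arrays of high acinar level it was 0.35, and with the covariate for macrophage marker level it was -0.33, neither of them called.

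Signals from endothelium to hepatocytes were close to even. Bmp2, which drives hepcidin in hepatocytes, had 0.06. The Wnt ligands Wnt2 and Wnt9b, which maintain the pericentral programme, had 0.04 and 0.03, and Rspo3, which strengthens Wnt signalling around the central vein, had -0.02. Their limma adjusted p lay between 0.669 and 0.933, and for Rspo3 the 95% interval was -0.17 to 0.13. Without the 4 arrays of high acinar level Wnt2 had -0.11 and Wnt9b -0.09. The lowest p in this role was that of Dll4, a Notch ligand. Its levels were 7.91, 8.01, 7.97, 7.80 and 7.68 in double knockout replicates 1 to 5, against 7.92, 7.97, 7.99, 8.16 and 8.04 in wild-type replicates 1 to 5. Double knockout replicates 1, 4 and 5 lay below all wild-type arrays while the other 2 lay within their range, and the difference was -0.14 (SE 0.07, limma adjusted p = 0.352).

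**Figure D2:**
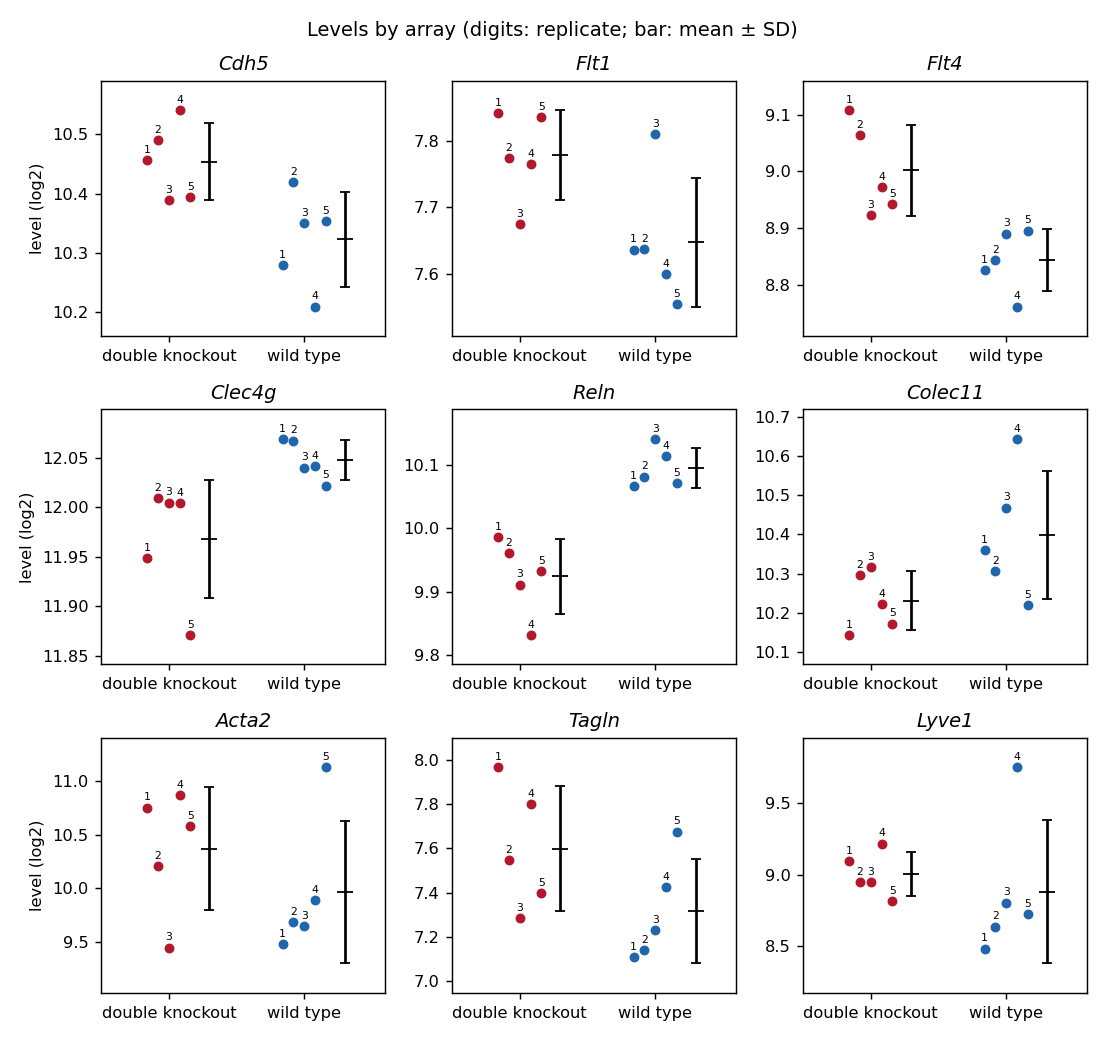
Log2 levels of 9 members on each array, double knockout at left and wild type at right of each panel. Digits give the replicate and the black bar the mean ± SD of 5 arrays. Groups are apart for Flt4, Clec4g and Reln. Lyve1 has a single high wild-type array (replicate 4, 9.75), and Acta2 ranges over more than 1 log2 unit within both groups.

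Stellate and matrix genes had no common lean. Of the 20, 9 stood higher in double knockout livers. The remaining 11 stood lower, and the median log2 difference was -0.01. The median ranged from -0.04, without double knockout replicate 1, to -0.005, without double knockout replicate 3, and was 0.03 with the covariate for olfactory receptor level. The endothelial and stellate medians differed in sign, and this difference was not tested.

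Genes of quiescent stellate cells were mostly lower, at 7 of 9, and this was the role with the lowest p. Higher means made up 22.2%, against 48.5% of all probe sets and 45.7% of those above the olfactory receptor level. Reln, the secreted glycoprotein reelin, had levels of 9.99, 9.96, 9.91, 9.83 and 9.93 in double knockout replicates 1 to 5, against 10.07, 10.08, 10.14, 10.11 and 10.07 in wild-type replicates 1 to 5. All double knockout arrays lay below all wild-type arrays, with 0.08 between the nearest. The difference was -0.17 (95% interval -0.26 to -0.08, SE 0.04, limma adjusted p = 0.0796), or 0.889 of the wild-type level. This was the lowest adjusted p of the 40 members. It passed in 1 of the 25 other fits, the one restricted to probe sets above the olfactory receptor level (limma adjusted p = 0.0474). The sign of the difference was negative in every fit. Since the groups did not overlap, leaving out arrays could not change that sign.

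Colec11, a collectin of the complement system made by stellate cells, had levels of 10.14, 10.30, 10.32, 10.22 and 10.17 in double knockout replicates 1 to 5. In wild-type replicates 1 to 5 they were 10.36, 10.31, 10.47, 10.64 and 10.22. The groups overlapped through wild-type replicates 2 and 5. Its difference of -0.17 (SE 0.07, limma adjusted p = 0.303) was -0.11 without wild-type replicate 4, the highest array, and -0.35 with the covariate for macrophage marker level.

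The remaining quiescent genes had smaller or less certain differences. Rgs5, a G-protein regulator of pericytes, had -0.14 on its main probe set and -0.11 on a second. Hgf, the hepatocyte growth factor, had -0.11, and -0.20 without the 4 arrays of high acinar level. The neurotrophin receptor Ngfr also had -0.11. Lrat, which esterifies retinol for storage, had -0.09 and the matrix protein Ecm1 -0.07. Des, the intermediate filament desmin, had 0.01 and Hand2, a transcription factor of stellate cells, 0.03. Limma adjusted p for these 7 genes ran from 0.42 to 0.99. Ngfr had 8.25 in wild-type replicate 4, against 7.40 to 7.65 in the other wild-type arrays and 7.45 to 7.69 in double knockout arrays, and its difference without that array was 0.02.

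Neither PDGF receptor passed. Pdgfra, the receptor of portal fibroblasts and stellate cells, had levels of 8.24, 8.40, 7.99, 8.12 and 7.99 in double knockout replicates 1 to 5, against 8.23, 8.14, 8.41, 8.58 and 7.99 in wild-type replicates 1 to 5. The ranges overlapped almost fully (difference -0.12, SE 0.11, limma adjusted p = 0.661). Leaving out wild-type replicate 4 gave -0.05 and leaving out replicate 5 gave -0.19, against -0.23 without all 4 arrays of high acinar level. Pdgfrb, the mitogen receptor of stellate cells and pericytes, averaged 8.53 ± 0.13 in double knockout and 8.54 ± 0.14 in wild-type livers (SD, n = 5 each).

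Matrix genes did not separate the genotypes. Col3a1, the fibrillar collagen III chain, had the lowest p of the 5, with levels of 7.46, 7.70, 7.33, 7.32 and 7.49 in double knockout replicates 1 to 5 and 7.32, 7.24, 7.26, 7.38 and 7.64 in wild-type replicates 1 to 5. One array of each genotype stood above the rest, double knockout replicate 2 and wild-type replicate 5, and the difference was 0.09 (SE 0.09, limma adjusted p = 0.699), or 0.16 without wild-type replicate 5. The collagen I chains Col1a1 and Col1a2 had 0.03 and 0.08, and -0.02 and 0.15 without the 4 arrays of high acinar level. A second Col1a2 probe set, at a mean level of 4.25, lay under the olfactory receptor level and had -0.01. Dcn and Lum, small proteoglycans that organise collagen fibrils, had -0.02 and 0.002. The Dcn interval of -0.10 to 0.07 was the narrowest of all 40 members.

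Acta2 was the most variable of the 40 members, with Lyve1 and Tagln after it. Acta2, smooth muscle actin and the usual sign of stellate activation, had levels of 10.75, 10.21, 9.45, 10.86 and 10.58 in double knockout replicates 1 to 5, against 9.48, 9.68, 9.65, 9.89 and 11.13 in wild-type replicates 1 to 5. The lowest array was a double knockout and the highest a wild type. Its pooled within-group SD of 0.62 stood at percentile 99.7 of all probe sets, and the difference of 0.40 (95% interval -0.30 to 1.11, limma adjusted p = 0.612) was not resolved. It was 0.69 without wild-type replicate 5 (limma adjusted p = 0.202) and likewise without the 4 arrays of high acinar level, and ran from 0.19 to 1.01 over the 25 other fits, with no call.

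Tagln, the actin-binding protein transgelin, was high on some of the same arrays. Its levels were 7.97, 7.55, 7.29, 7.80 and 7.40 in double knockout replicates 1 to 5, against 7.11, 7.14, 7.23, 7.42 and 7.68 in wild-type replicates 1 to 5. For both genes wild-type replicate 5 was the highest wild-type array and double knockout replicate 3 the lowest double knockout array. Its difference was 0.28 (SE 0.14, limma adjusted p = 0.363). Vim, the filament vimentin of mesenchymal and endothelial cells, had 0.07 on its main and -0.02 on its second probe set. Timp1, a metalloproteinase inhibitor induced in fibrosis, was at background with 5.08 ± 0.07 in double knockout and 5.12 ± 0.08 in wild-type livers (SD, n = 5 each). Its difference of -0.04 was 0.01 without the 4 arrays of high acinar level.

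The mean level of smooth muscle markers of vessel walls varied over the same arrays. Cnn1, calponin, had the highest difference of the 7 markers, 0.64, where their median was -0.06. Its levels were 8.15, 7.87, 6.87, 8.57 and 8.06 in double knockout replicates 1 to 5, against 6.88, 7.42, 6.97, 7.02 and 8.04 in wild-type replicates 1 to 5. The mean of the 7 smooth muscle markers, of which 3 were higher in double knockout livers and 0 called, ranged from 7.24 to 7.80 in double knockout and from 7.29 to 7.81 in wild-type arrays. Its highest wild-type array was again replicate 5 and its lowest double knockout array replicate 3. The part of these markers in the Acta2 and Tagln values was not tested.

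Arrays of 1 genotype also differed among themselves, and 2 wild-type arrays stood out. Wild-type replicate 4 was the lowest of all 10 arrays for 9 endothelial genes, Tek, Wnt2, Pecam1, Cdh5 and Ehd3 among them, and the highest of 10 for 5 stellate genes, Colec11, Ngfr, Rgs5, Pdgfrb and Pdgfra. Wild-type replicate 5 was the highest wild-type array for 10 stellate and matrix genes, including all 5 matrix genes and all 4 activation and contractile genes. It was the lowest wild-type array for 5 stellate genes, Colec11, Lrat, Ngfr, Rgs5 and Pdgfra, so the 2 arrays went opposite ways for several stellate genes. Wild-type replicates 4 and 5 were also the arrays with the highest acinar marker means. In the double knockout group, replicates 3 and 5 were each the lowest array for 9 endothelial genes, and their acinar means, 6.15 and 6.26, were low. The part of acinar tissue in these values was not tested.

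**Figure D3:**
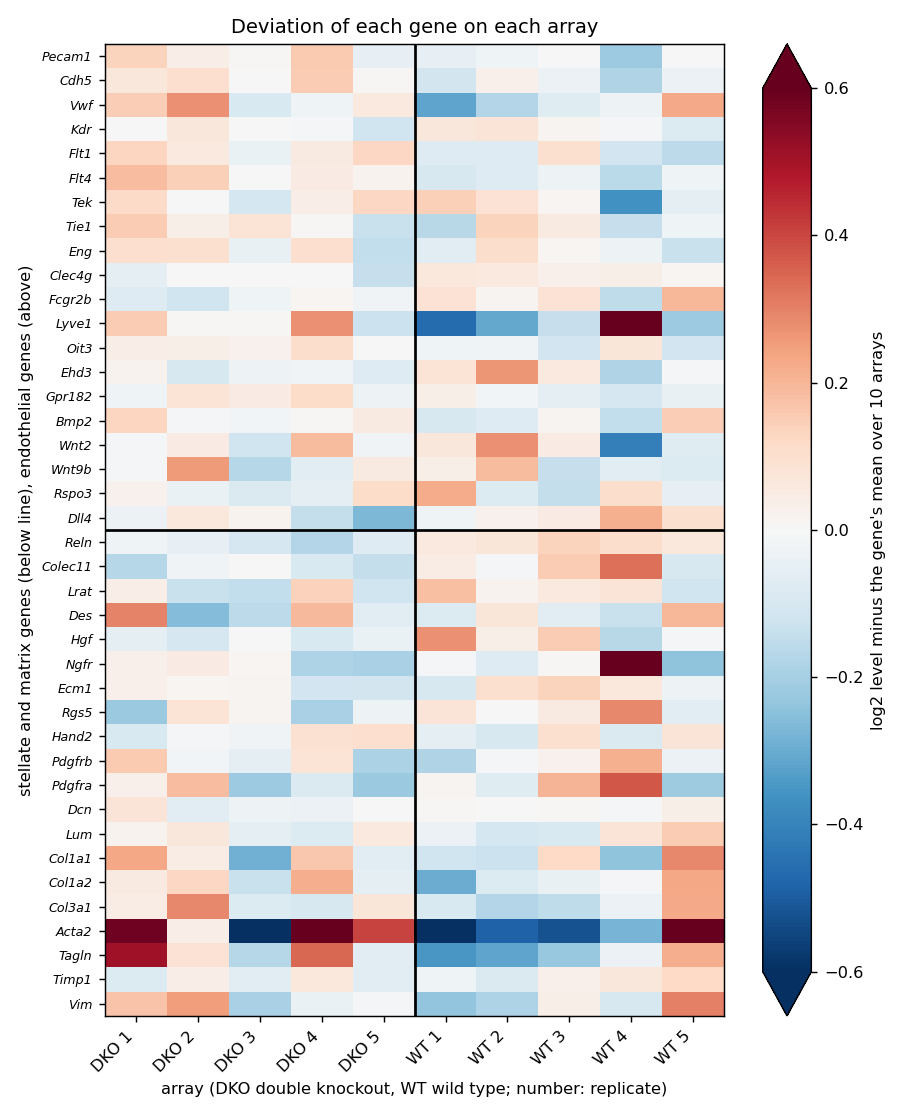
Deviation of each member from its own mean over the 10 arrays (log2, colour scale limited to 0.6 in either direction). Columns are arrays, double knockout left of the line and wild type right of it, and rows are endothelial genes (top) and stellate and matrix genes (bottom). Wild-type replicate 4 shows low endothelial genes beside high Lyve1, Ngfr and Pdgfra, and the Acta2 and Tagln rows change strongly within both groups.

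Mean levels of whole lists gave the same picture. The endothelial members averaged 9.25 ± 0.04 per array in double knockout and 9.21 ± 0.03 in wild-type livers (SD, n = 5 each), with ranges of 9.21 to 9.29 and 9.18 to 9.26. The stellate and matrix members averaged 8.89 ± 0.08 in double knockout and 8.90 ± 0.08 in wild-type livers (SD, n = 5 each). Macrophage markers, another non-parenchymal type, stood higher for 14 of 14, where 48.5% of all probe sets did. Their list means were 9.08 to 9.41 in double knockout and 8.84 to 9.16 in wild-type arrays. At an unadjusted p under 0.05 there were 8, or 57.1%, against 15.1% of all probe sets. The groups did not overlap for 3, or 21.4%, against 3.90%. Cd163 and Marco, scavenger receptors of macrophages, were called there, where 0.884% of all probe sets were. They had 0.44 and 0.61 (limma adjusted p = 0.0284 and 0.0475). Cd163 lost its call in 4 and Marco in 8 of the 10 fits without an array, and both lost it without the 4 arrays of high acinar level (0.44 and 0.66, limma adjusted p = 0.175 and 0.132). With the covariate for macrophage marker level 0 members were called, and the endothelial median was 0.06 with 15 of 20 higher. That fit called 14 of all probe sets, and Macroh2a1 lost its call (-0.47, limma adjusted p = 0.0536). Lost calls there therefore cannot show how macrophage level bears on a gene.

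**Figure D4:**
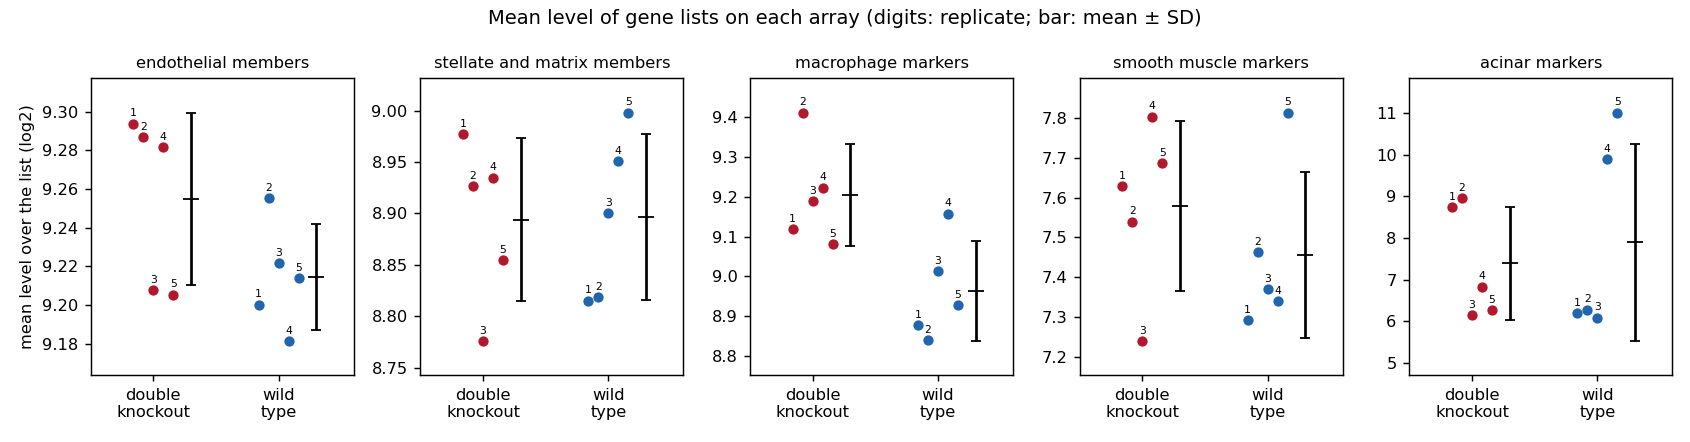
Mean log2 level of 5 gene lists on each array, double knockout left and wild type right in each panel. Digits give the replicate and bars the mean ± SD of 5 arrays. Endothelial and stellate means overlap between genotypes, macrophage means are mostly higher in double knockout arrays, and acinar means are high on 2 arrays of each group.

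A wider list of endothelial genes was read in the same way. Of 35 further endothelial genes, 18 stood higher and 17 lower in double knockout livers. Their median difference was 0.005, and 1 was called, where 0.884% of all probe sets were. At an unadjusted p under 0.05 there were 3, or 8.57%, against 15.1% of all probe sets. The groups did not overlap for 2, or 5.71%, against 3.90%. The gene called was S1pr1, the receptor through which sphingosine 1-phosphate tightens the endothelial barrier. Its levels were 8.91, 8.88, 8.64, 8.92 and 8.75 in double knockout replicates 1 to 5, against 9.36, 9.35, 9.32, 9.45 and 9.42 in wild-type replicates 1 to 5. The groups were 0.40 apart at their closest, and S1pr1 fell by 0.56 (SE 0.06, limma adjusted p = 0.00179), or 0.679 of the wild-type level. It stayed called in all 10 fits without an array, with the covariate for macrophage marker level (-0.62, limma adjusted p = 0.0348) and without the 4 arrays of high acinar level (-0.57, adjusted p = 0.0431). S1pr1 is used by other cells as well, so its level is not a measure of endothelium alone.

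Other stellate and matrix genes had 0 calls in limma, where 0.884% of all probe sets were called. Of 23 further stellate genes measured, 17 had lower means, with a median of -0.04. Higher means made up 26.1%, against 48.5% of all probe sets. At an unadjusted p under 0.05 there were 5, or 21.7%. That is against 15.1% of all probe sets and 19.5% of those above the olfactory receptor level, where 22 of the 23 genes lay. The chemokine Cxcl12 had the lowest p, with -0.23 (SE 0.05, limma adjusted p = 0.0738) and double knockout arrays all below wild-type arrays. It was the only 1 of the 23 without overlap, or 4.35%, against 3.90% of all probe sets. Pth1r, the parathyroid hormone receptor, had -0.25 (limma adjusted p = 0.147). Of 32 further matrix and TGF-beta genes, 20, or 62.5%, had higher means, and 5, or 15.6%, had an unadjusted p under 0.05. The groups overlapped for all 32. Ccn1, a secreted matricellular protein, had -0.59 (SE 0.13, limma adjusted p = 0.0627), and this was -0.28 without the 4 arrays of high acinar level. Smad7, the inhibitor of TGF-beta signalling, had -0.35 (limma adjusted p = 0.229), and -0.07 without those arrays. Cxcl12 and Ccn1 were each called in 1 of the 10 fits without an array (limma adjusted p = 0.041 and 0.0394).

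The ligands, receptors and partners that act with the members were mostly lower. Of 29 such genes, 24 stood lower in double knockout livers. Higher means made up 17.2%, against 48.5% of all probe sets and 45.7% of those above the olfactory receptor level. Their median difference was -0.08, and 10 had an unadjusted p under 0.05, 1 higher and 9 lower. That is 34.5%, against 15.1% of all probe sets and 19.5% of those above the olfactory receptor level, where 25 of the 29 lay. None was called in limma, and the groups did not overlap for 5, or 17.2%, against 3.90% and 5.78%. This list, like the others here, was chosen with earlier results of these data known, so its shares are description and not a test.

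The lowest p belonged to Fzd4, a Wnt receptor of endothelium and other cells. Its levels were 9.79, 9.89, 9.84, 9.74 and 9.32 in double knockout replicates 1 to 5, against 9.94, 10.19, 10.20, 10.27 and 10.17 in wild-type replicates 1 to 5. The groups were apart by 0.04, and the difference was -0.44 (SE 0.10, limma adjusted p = 0.0738). Pdgfa, a ligand of the receptor Pdgfra, had -0.19 (SE 0.05, limma adjusted p = 0.0861), and was called in 1 of the 10 fits without an array (adjusted p = 0.0322).

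The other 3 genes without overlap were chosen here after their values were seen. Lrp6, the Wnt co-receptor, had -0.15, Notch2, a receptor for Dll4 and Jag1, had -0.20, and Vegfb, a ligand of Flt1, had -0.12. Their limma adjusted p were 0.0894, 0.133 and 0.23. Vegfa, the ligand of Kdr and Flt1, had -0.13 (limma adjusted p = 0.273), while Vegfd, a ligand of Flt4, had 0.13 (adjusted p = 0.229 in limma).

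**Figure D5:**
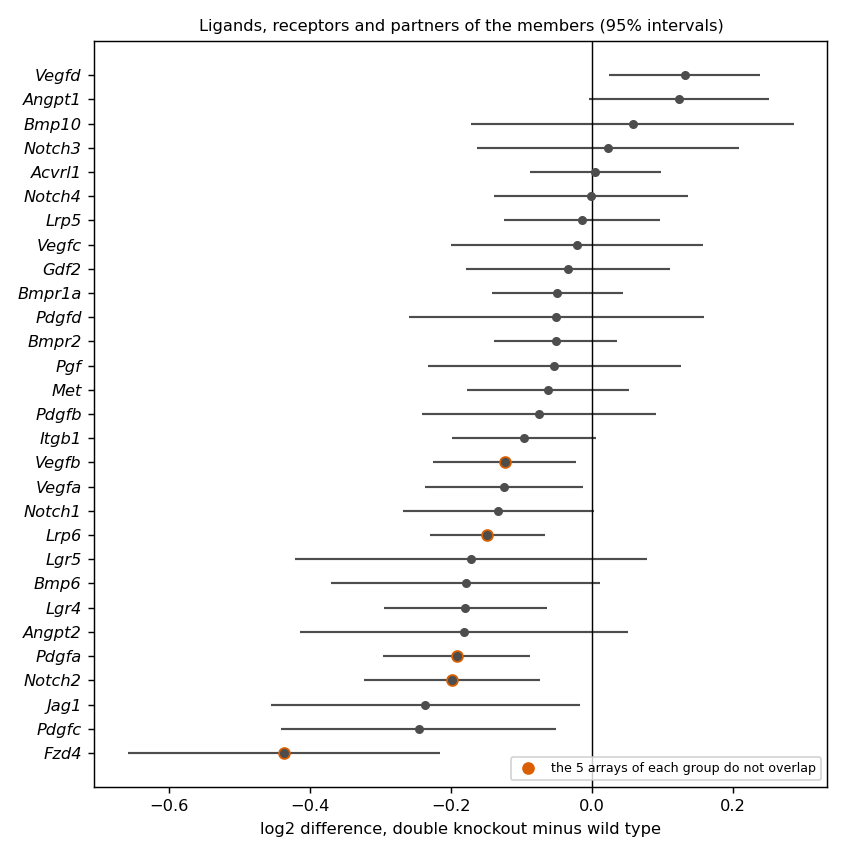
Log2 differences (double knockout minus wild type, n = 5 arrays each) of the 29 partner genes, ordered by size, with 95% intervals of single genes from limma. Orange points are the 5 genes whose groups do not overlap, and all 5 lie below 0.

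Genes that the members' signals induce gave a mixed picture. Of 19, 6 had higher and 13 lower means, or 31.6% higher against 48.5% of all probe sets. At an unadjusted p under 0.05 there were 7 (2 higher, 5 lower). That is 36.8%, against 15.1% of all probe sets and 19.5% of those above the olfactory receptor level. The groups did not overlap for 2, Rhbg higher and Slc1a2 lower, or 10.5%, against 3.90% and 5.78%. The 5 lower genes were Slc1a2 (-0.21), Hes1 (-0.45), Hamp (-0.31), Id1 (-0.23) and Id3 (-0.23), with limma adjusted p from 0.0627 to 0.325. The 2 higher were Rhbg and Glul (0.20, limma adjusted p = 0.12). Genes other than Rhbg are named here after their values were seen. The 1 gene called, where 0.884% of all probe sets were, was Rhbg. This gene, an ammonium transporter of pericentral hepatocytes, rose by 0.58 (SE 0.10, limma adjusted p = 0.0279), with double knockout arrays at 9.40 to 10.04 and wild-type arrays at 8.94 to 9.29. It lost its call in 6 of the 10 fits without an array (limma adjusted p up to 0.0775). The call was also lost with the covariate for macrophage marker level (0.58, limma adjusted p = 0.206). Macroh2a1 lost its call in that fit as well (-0.47, limma adjusted p = 0.0536). Without the 4 arrays of high acinar level the Rhbg call was lost too (0.51, limma adjusted p = 0.154). Of 12 genes of retinoid storage and turnover, 6 were higher and 6 lower, with 0 called in limma and 3 at an unadjusted p under 0.05, or 25% against the same 15.1% and 19.5%. Dhrs3, which reduces retinaldehyde to retinol, had -0.26 (limma adjusted p = 0.0844), and Stra6l, a retinol transporter, -0.12 (adjusted p = 0.204 in limma). Dhrs3 was the only 1 of the 12 without overlap, or 8.33%, against 3.90% of all probe sets.

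Markers of other cell types showed 0 calls in limma outside macrophages. Over all probe sets 0.884% were called, so 0 calls in lists this short is near that share, and 48.5% had higher means in double knockout livers. Mesothelial markers were lower for 5 of 5 (Wt1 -0.13, Gpm6a -0.17), cholangiocyte markers higher for 4 of 5 (Krt19 0.16, Sox9 -0.12) and hepatocyte markers lower for 7 of 10 (Serpina1a -0.11, a gene with near-identical copies, and Pck1 -0.07). Acinar markers were lower for 9 of 11 (Prss2 -1.05, Try5 0.12, both at mean levels under the olfactory receptor value), and Prss2 had -0.09 without the 4 arrays of high acinar level. Gpm6a had -0.01 and Sox9 -0.21 without those arrays. Among smooth muscle markers Cnn1 had 0.64 and Lmod1 -0.12. The limma adjusted p of the 10 genes named here lay between 0.217 and 0.653. At an unadjusted p under 0.05 there was 1 mesothelial and 1 smooth muscle marker. These are 20% and 14.3% of their lists, against 15.1% of all probe sets.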

How the data were processed

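Values in the deposited table were log2 levels of probe sets. Per the submitters' processing notes, the authors used Affymetrix Expression Console; its version and settings, the summarisation and the normalization are not given in those notes. Biotin-labelled cDNA was made from total liver RNA, per the labels' protocols. Precision is limited by the number of arrays. Scanner files and dates were not analysed here.

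Of 41345 rows, 23521 had 1 gene symbol in the platform annotation, 1814 several and 16010 none. The 25335 rows with a symbol were fitted in limma 3.58.1 (R 4.3.3, lmFit and eBayes, two-sided, group as the only term, 8 residual and 3.96 prior degrees of freedom), with Benjamini-Hochberg adjustment over all of them and calls at an adjusted p under 0.05. A gene with several probe sets was read from the one with the highest mean. No filter or further normalization was applied, and the fit was tested on simulated data.

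The members and lists were chosen with earlier results of these data known. Every member is accounted for. Array values are given for members with an unadjusted p under 0.05 or without overlap, and for the lowest p in each role; Acta2 and Lyve1 were added after their values were seen. Of other lists, up to 4 called genes, or else the 2 of lowest p, are named. Of 252 listed genes, 8 had no probe set of their own and were left out. Alternatives were other moderation, weights, normalization, row filters, probe set averaging, thresholds, marker covariates, a replicate block and leaving out arrays.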

Additional observations from a re-analysis of the deposited data

Results flagged for a closer look

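In 5 groups of 5 arrays, 1 array stood far from the other 4, by the ratio of its gap to the group's range. Among members, Pecam1 was 8.74 in wild-type replicate 4, against 8.91 to 8.96 in the other wild-type arrays. Lyve1 was 9.75 in wild-type replicate 4, against 8.48 to 8.81. Acta2 was 11.13 in wild-type replicate 5, against 9.48 to 9.89. Among other named genes, Fzd4 was 9.32 in double knockout replicate 5, against 9.74 to 9.89, and Try5 was 4.57 in wild-type replicate 4, against 4.29 to 4.35. Chance gives about 1 in 20 groups, or 4 of the 80 member groups examined, where 3 were found. All 3 lay in the wild-type arrays with the highest acinar marker means, and a link was not tested.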

How the results depend on the processing

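Calls over all probe sets numbered 224 and depended on the setting: 75 with every row tested, 377 with the filter on low levels, 14 with the macrophage and 53 with the olfactory receptor covariate, 613 without replicate 1 of both groups, 68 without the 4 arrays of high acinar level, 585 at an adjusted p under 0.1 and 45 under 0.01. With the replicate block there were 76, and 0 members were called. Deviations of same-numbered arrays from their group means had correlations from -0.477 to 0.131. With so few arrays this cannot show whether the numbers pair the samples, which the labels leave unsaid. Without single arrays the count ran from 64 to 253.

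Called endothelial members stayed at 0 in all settings. Called stellate members were 1 (Reln, -0.17) with the low-level filter and at an adjusted p under 0.1, otherwise 0. Without single arrays, endothelial genes with a higher mean numbered 13 to 15 (median 0.03 to 0.08), and stellate genes 6 to 10 (median -0.04 to -0.005). Without the 4 high-acinar arrays 9 endothelial genes were higher (median -0.0169), against 14 (median 0.0526) with the acinar marker mean as a covariate. Without both replicates 1 there were 5 stellate genes higher. Of the 34 members with an unadjusted p of at least 0.05 and overlapping groups, 20 changed sign in at least 1 of 25 fits and 0 were called. Cdh5, Flt1, Flt4, Clec4g, Reln and Colec11 kept their sign in all 25. These genes were picked from the same data by their p or lack of overlap, so a stable sign is partly fixed by that choice. For Flt4, Clec4g and Reln, whose groups did not overlap, leaving out arrays could not change it. The cause of the shifts between settings was not tested.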
